A study of Mus musculus with 7 samples.

Results

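H3K27ac and H3K4me2 peaks were examined around 10 genes that make and sulfate chondroitin sulfate, namely Ugdh, Slc35d1, Slc26a2, Papss2, Xylt1, Csgalnact1, Chsy1, Chsy3, Chst11 and Chst3, out of 18089 protein-coding genes that could be placed on both genome builds used here. The genes were chosen by name for their known roles, and the rule used no measured value, although earlier results of these data were known at that point. In each of 6 peak lists, peaks that came within 1 kb of a start site (TSS), in the gene body and within 50 kb of the gene were collected for every member.

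Enhancers that drive Sox9, the master transcription factor of cartilage cells, were screened in the study by ATAC-Seq, which maps open chromatin, and ChIP-Seq. The ChIP-Seq marks were H3K27ac (a mark of active promoters and enhancers) and H3K4me2 (a mark of promoters and enhancers more widely). Candidates were then examined by reporter assays and by deletion in mice. Only ChIP-Seq peak lists were used here. Primary chondrocytes came from rib cartilage of newborn mice and dermal fibroblasts from dorsal skin of newborn mice. Chondrocytes were used within 2 passages and are bulk cultures. Chondrocyte H3K27ac had 2 biological replicates, and chondrocyte H3K4me2 and fibroblast H3K27ac had 1 library each. A separate pair of H3K27ac libraries, 1 each, came from rib chondrocytes of WT mice and of E160Δ/Δ E308Δ/Δ mice, which lack both upstream Sox9 enhancers on both alleles after CRISPR/Cas9 editing of C57BL/6J embryos in 2 steps. WT and double-deletion mice were bred from intercrossed heterozygotes. Ages come from the methods of the study, and the strain of the mice behind the other libraries was not given in the sources used here.

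The lists held 25597 peaks (chondrocyte replicate 1), 20453 (replicate 2), 66369 (H3K4me2), 19458 (fibroblasts), 33392 (WT) and 25230 (E160Δ/Δ E308Δ/Δ), and their read depth is unknown. Coordinates of replicate 2 followed GRCm38 and those of the remaining lists mm9, so that replicate 2 marked 43.1% of promoters with GRCm38 positions and 6.24% with mm9 positions. Of 14 chondrocyte marker genes, 8 had a marked promoter in replicate 1, 12 in replicate 2, 12 in WT, 12 in E160Δ/Δ E308Δ/Δ and 1, Sox9, in fibroblasts. In replicate 1, Sox9, Col2a1, Col11a1, Matn1, Sox5 and Sox6 had no promoter peak. Of 9 fibroblast marker genes, 5 were marked in fibroblasts, where Col1a1, Col1a2, Col3a1 and Prrx1 had no promoter peak, against 4 in replicate 1, 7 in replicate 2 and 8 in each of WT and the deletion list. Promoters of the keratinocyte, endothelial and muscle markers and of the haematopoietic marker Ptprc were unmarked in all 6 lists.

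Chondroitin sulfate is the glycosaminoglycan that fills cartilage matrix, where its chains hang from core proteins such as aggrecan and hold water. A chain is begun on a serine by xylose and completed into a linkage region, lengthened by alternating glucuronic acid and N-acetylgalactosamine in the Golgi, and sulfated while it grows. The cell must therefore supply UDP-sugars and activated sulfate and carry both into the Golgi, and inherited loss of several of these genes causes skeletal dysplasia.

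Most members carried H3K27ac at the promoter in chondrocytes and fibroblasts alike. The promoter was marked in 8 of 10 members in replicate 1 (44.2% of all genes), in 8 in replicate 2 (43.1% of all genes) and in 7 in both replicates (38.5% of all genes). In fibroblasts 8 of 10 were marked (47.5% of all genes), in WT 9 (50% of all genes), in E160Δ/Δ E308Δ/Δ 9 (47.1% of all genes) and for H3K4me2 8 (66.3% of all genes). Each list therefore marked a larger share of the members than of all genes, with the smallest difference for H3K4me2. The H3K4me2 count did not hold, as it was 4 with only the higher-scoring 50% of peaks. It was also 4 with as many top-scoring peaks as in the shortest list.

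No member promoter was marked in replicate 1 and unmarked in fibroblasts, 0 of 8, where 6.95% of all promoters marked in replicate 1 were unmarked in fibroblasts. The reverse count was also 0 of 8 (13.4% of all promoters marked in fibroblasts). Against fibroblasts, replicate 2 had 1 member of 8, Papss2 (8.41% of all promoters), and WT had 1 of 9, Chst3 (9.27% of all promoters). WT promoters unmarked in the deletion list numbered 0 of 9 (5.78% of all promoters). Members are not replicates of a condition, and with 1 library in most groups no test between groups was possible. In bulk cultures, fewer cells with a mark and a weaker mark in each cell cannot be told apart.

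**Figure D1:**
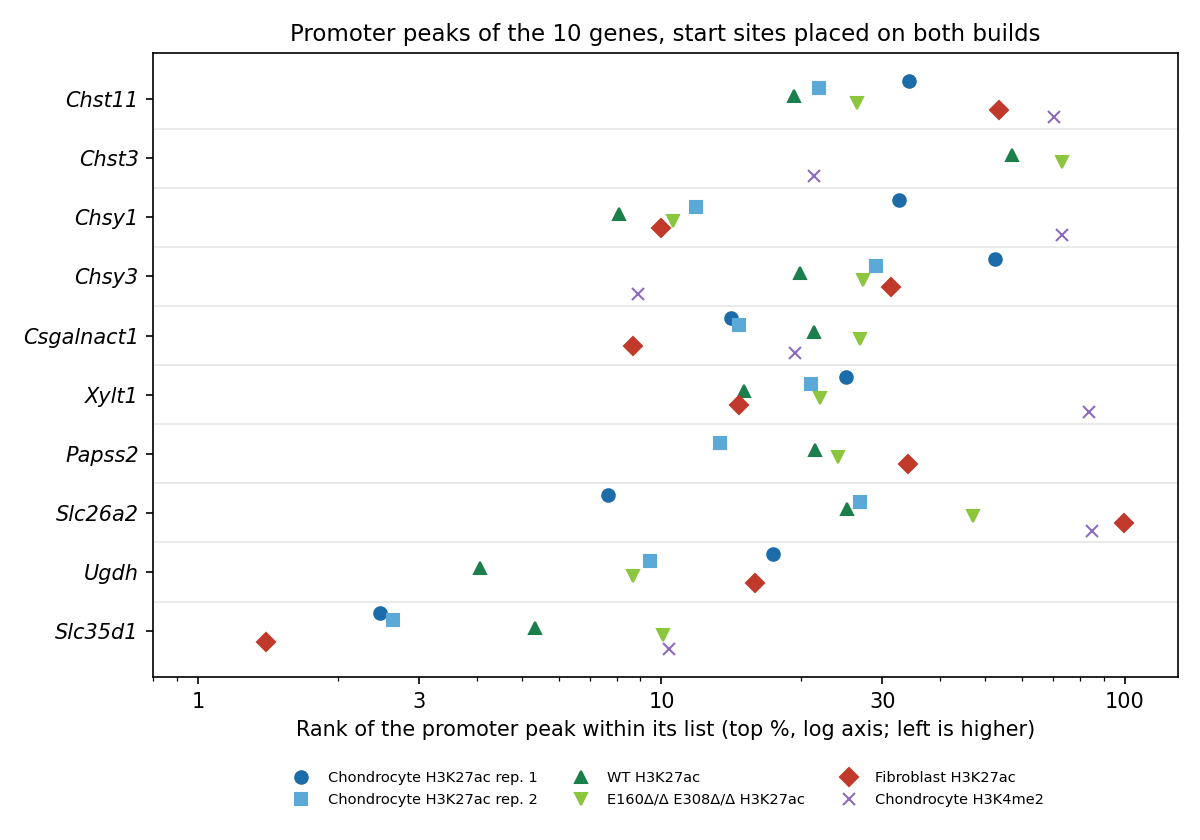
Rank of the promoter peak of each member within its own list (x axis, top percent by score, log axis, lower is higher; y axis, the 10 genes; symbols, the 6 lists), with RefSeq start sites where these could be placed and no symbol where no peak reached within 1 kb. Slc35d1 held the top 1.40% in fibroblasts and 2.47% in replicate 1, whereas Chst3 had symbols in 3 lists.

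A rank is used here in place of a level, since scores cannot be compared between lists: top 5% means that 5% of the peaks of that list scored as high or higher. Ugdh, which oxidizes UDP-glucose to the UDP-glucuronic acid built into every chain, lay on the minus strand of mm9 chr5:65804441-65827185. Its promoter peak ranked in the top 17.4% of replicate 1, 9.45% of replicate 2, 4.06% of WT, 8.67% of E160Δ/Δ E308Δ/Δ and 15.9% of fibroblasts, and the promoter had no H3K4me2 peak. All 5 H3K27ac lists thus marked Ugdh, with summed widths of 4248 bp in replicate 1, 2541 bp in replicate 2, 3439 bp in WT, 3317 bp in E160Δ/Δ E308Δ/Δ and 2669 bp in fibroblasts. Distal peaks, defined as peaks in the window that lay over 1 kb from the 5′ end of every protein-coding gene placed on that build, numbered 3 in each chondrocyte replicate, 5 for H3K4me2, 8 in WT, 6 in E160Δ/Δ E308Δ/Δ and 2 in fibroblasts. A region 40.3 kb upstream, chr5:65866705-65868236 inside 1110003E01Rik, ranked at 26.3% in replicate 1, at 39.2% in WT and at 56.3% in the deletion list, with no fibroblast peak.

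Slc35d1, which carries UDP-glucuronic acid and UDP-N-acetylgalactosamine into the secretory pathway, had the highest-ranking promoter peak of the 10 genes in fibroblasts and replicate 1. On the minus strand of mm9 chr4:102843254-102887769, the peak ranked in the top 2.47% of replicate 1, 1.40% of fibroblasts, 5.32% of WT, 10.1% of E160Δ/Δ E308Δ/Δ and 10.4% of H3K4me2. Replicate 2 had no peak at the GRCm38 end of the gene, but that end lies 7.09 kb upstream of the RefSeq TSS, where replicate 2 had a peak of 2665 bp in the top 2.63%. Around Slc35d1, distal peaks numbered 4 in replicate 1, 2 in replicate 2 (1 without this promoter peak), 5 for H3K4me2, 3 in WT and 0 in both the deletion list and fibroblasts. The WT peak 95.2 kb downstream of the TSS, at the RefSeq start of Mier1 (top 5.82%), overlapped narrower peaks of both these lists that ended just outside the 50 kb window.

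Slc26a2, the sulfate transporter of the plasma membrane, lay on chromosome 18 and differed most in promoter rank between the cell types. Its promoter peak ranked in the top 7.67% of replicate 1 and 26.8% of replicate 2, but at 99.5% of the fibroblast list, close to the lowest score kept. The highest-scoring promoter peak ranked at 25.1% in WT, at 47.0% in the deletion list and at 85.1% for H3K4me2. The fibroblast peak overlapped neither of these WT and deletion peaks, but met another WT promoter peak that ranked at 68.6%. The promoter peak was 2504 bp wide in replicate 1 and 654 bp in fibroblasts. Distal peaks numbered 4 and 5 in the chondrocyte replicates, 6 for H3K4me2, 3 in WT, 2 in E160Δ/Δ E308Δ/Δ and 1 in fibroblasts. Of these, regions 30.7 kb and 17.8 kb upstream, both inside Pde6a, ranked in the top 11.1% and 24.6% of replicate 1 and had no fibroblast peak. They ranked lower in WT, at 52.3% and 88.9%. Replicate 2 peaks at 30.7 kb and 17.9 kb upstream on its own build ranked at 29.6% and 91.3%. The deletion list had the first region at 73.1% and no peak at the second.

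Papss2, which makes the activated sulfate PAPS, has a pair of annotated starts, and the mark followed the upstream one. The mm9 gene (plus strand, chr19:32694495-32741677) begins 24.3 kb downstream of the first RefSeq start. At the mm9 end, none of the 5 mm9 lists had a peak. At the upstream start, WT had a peak of 2362 bp (top 21.4%), the deletion list 1501 bp (top 24.0%), fibroblasts 1056 bp (top 34.0%) and replicate 2, on its own build, 4050 bp (top 13.4%). Replicate 1 and H3K4me2 had none there. From the upstream start to the mm9 start, WT held 10 peaks with 6799 bp in all, the deletion list 4 with 2656 bp, fibroblasts 1 with 1056 bp and H3K4me2 1 with 3994 bp. Over the same distance replicate 2 held 9 peaks with 12461 bp and replicate 1 held 0. The chondrocyte replicates therefore differed from each other at Papss2. Its distal counts, 3 in replicate 1, 9 in replicate 2, 3 for H3K4me2, 11 in WT, 4 in E160Δ/Δ E308Δ/Δ and 1 in fibroblasts, include the peak at the upstream start in WT, in the deletion list and in fibroblasts. The count of 9 in replicate 2 also includes a peak at the RefSeq start of the neighbouring gene Atad1 (top 21.9%), and was 8 without it.

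The 250 bases before each RefSeq start (GRCm38, plus strand, RefSeq sequences) are shown because the starts differ in both mark and base composition, with GC boxes (GGGCGG on either strand) in capitals. The upstream start, chr19:32595465-32595714, held 2 GC boxes, 24 CG dinucleotides and 67.6% G+C, and the downstream one, chr19:32619755-32620004, held 0 GC boxes, 1 CG dinucleotide and 43.2% G+C. Slc35d1 (minus strand, chr4:103215177-103215426), shown for comparison as the member whose promoter peak ranked highest in replicate 1 and fibroblasts, held 2 GC boxes and 22 CG dinucleotides with 75.2% G+C. Of all RefSeq promoter windows of this length, 32.7% held a GC box. A match is a description of the letters and not evidence of a bound factor.
Papss2 upstream start: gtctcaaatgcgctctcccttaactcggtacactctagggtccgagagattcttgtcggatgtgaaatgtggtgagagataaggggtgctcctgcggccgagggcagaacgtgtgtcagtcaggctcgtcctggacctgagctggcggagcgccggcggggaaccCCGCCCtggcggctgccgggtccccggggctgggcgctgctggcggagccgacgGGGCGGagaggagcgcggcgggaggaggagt
Papss2 downstream start: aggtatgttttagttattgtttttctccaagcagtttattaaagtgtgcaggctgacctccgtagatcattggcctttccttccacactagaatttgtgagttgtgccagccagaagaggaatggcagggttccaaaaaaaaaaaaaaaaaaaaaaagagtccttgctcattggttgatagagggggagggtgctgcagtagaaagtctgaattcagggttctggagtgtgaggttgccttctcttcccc
Slc35d1: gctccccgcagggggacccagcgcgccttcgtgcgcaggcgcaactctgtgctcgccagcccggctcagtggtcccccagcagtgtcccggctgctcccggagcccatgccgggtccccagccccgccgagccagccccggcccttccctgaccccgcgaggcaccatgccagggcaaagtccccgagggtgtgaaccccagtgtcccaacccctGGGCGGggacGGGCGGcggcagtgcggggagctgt

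RefSeq promoter sequences matched 6 of the 10 members. Entries were not matched for Slc26a2, Xylt1, Csgalnact1 and Chsy3. With RefSeq starts in place of gene ends, the marked members numbered 8 in replicate 1 (45.8% of all genes), 9 in replicate 2 (45.4%) and 8 for H3K4me2 (68.2%). They numbered 10 in WT (51.8%), 10 in the deletion list (48.8%) and 9 in fibroblasts (49.4%). Between replicate 2 and fibroblasts, Papss2 no longer differed. Papss2 was then marked in fibroblasts and unmarked in replicate 1, so that this count rose from 0 of 8 to 1 of 9 (13.4% of all promoters).

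Xylt1, the xylosyltransferase that starts the linkage region, carried a broad promoter peak in every list and a row of intronic regions. On the plus strand of mm9 chr7:124524493-124811265, the promoter peak was 6210 bp in replicate 1 (top 25%), 2328 bp in replicate 2 (top 21.0%), 4518 bp in WT (top 15.1%), 2714 bp in E160Δ/Δ E308Δ/Δ (top 22.0%) and 1770 bp in fibroblasts (top 14.7%). The fibroblast peak was the narrowest of the 5 H3K27ac peaks but did not rank below the others. Xylt1 had 11 distal peaks in replicate 1, 25 in replicate 2, 20 for H3K4me2, 18 in WT, 16 in E160Δ/Δ E308Δ/Δ and 2 in fibroblasts, or 18 ± 9.90 (SD, n = 2) over the chondrocyte replicates. An intronic peak 105 kb from the TSS, chr7:124628855-124630792, reached the top 9.08% of replicate 1 and was the highest-ranking distal peak of replicate 1 without a fibroblast peak around any member. It ranked at 29.0% in WT and 38.2% in the deletion list.

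Csgalnact1 adds the first N-acetylgalactosamine and so commits the linkage region to chondroitin rather than heparan sulfate. Its promoter (minus strand, mm9 chr8:70880680-71259045) ranked in the top 14.1% of replicate 1, 14.7% of replicate 2, 8.66% of fibroblasts, 21.3% of WT, 26.8% of E160Δ/Δ E308Δ/Δ and 19.4% of H3K4me2. The promoter was thus at a similar or higher rank in fibroblasts. Of the 10 members it had the most distal peaks in fibroblasts, 8, and it had 17 in replicate 1, 20 in replicate 2, 24 for H3K4me2, 21 in WT and 8 with the deletion. Of 17 in replicate 1, 14 had no fibroblast peak, and 5 fibroblast peaks had a partner in neither replicate 1 nor WT. These 5 lay in introns 188 to 353 kb from the TSS and ranked between 60.0% and 97.1% of the fibroblast list. The highest-ranking region of replicate 1 without a fibroblast peak, chr8:70966323-70969958 in an intron 291 kb from the TSS, ranked at 12.7% there, at 31.1% in WT and at 40.1% in the deletion list.

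Chsy1 and Chsy3 are chondroitin synthases that lengthen the chain, and they carried different patterns. Chsy1 (plus strand, mm9 chr7:73254401-73318675) had promoter peaks of 6011 bp in replicate 1, 3166 bp in replicate 2, 2874 bp in WT, 2662 bp in E160Δ/Δ E308Δ/Δ and 1918 bp in fibroblasts, with ranks of 32.5%, 11.9%, 8.10%, 10.6% and 10%. Around Chsy1, distal peaks numbered 4 in replicate 1, 5 in replicate 2, 10 for H3K4me2, 7 in WT, 9 in E160Δ/Δ E308Δ/Δ and 2 in fibroblasts. The 5 in replicate 2 include a peak at the start of the neighbouring gene Selenos (top 3.20%), without which they were 4. The 9 in the deletion list overlapped 6 of the 7 in WT, since several WT peaks were met by more than 1 narrower peak.

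Chsy3, on the plus strand of chromosome 18, alone had a wider promoter peak in fibroblasts than in both chondrocyte replicates and WT. The peak spanned 1568 bp in fibroblasts, against 702 bp in replicate 1, 977 bp in replicate 2 and 1487 bp in WT. It ranked in the top 52.4% of replicate 1, 29.0% of replicate 2, 19.9% of WT, 27.2% of E160Δ/Δ E308Δ/Δ, 31.3% of fibroblasts and 8.92% of H3K4me2. Chsy3 had 16 distal H3K4me2 peaks but 8 distal H3K27ac peaks in replicate 1, 2 in replicate 2, 2 in WT, 0 in E160Δ/Δ E308Δ/Δ and 1 in fibroblasts. Distal H3K4me2 peaks at Chsy3 thus outnumbered the H3K27ac peaks of every list. The same held at Chsy1, Chst3, Csgalnact1, Slc26a2 and Slc35d1, but not at Chst11, Xylt1, Papss2 or Ugdh. Around all genes the H3K4me2 list held 2.36 distal peaks per 100 kb, against 0.544 to 1.28 in the H3K27ac lists.

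Chst11, the chondroitin 4-O-sulfotransferase, had the highest ratio of chondrocyte to fibroblast promoter width among the members marked at the gene end. On the plus strand of mm9 chr10:82448243-82658645, its promoter peak was 5932 bp in replicate 1 (top 34.2%), 2966 bp in replicate 2 (top 21.9%), 3611 bp in WT (top 19.3%), 1646 bp for the higher-scoring of 2 peaks in E160Δ/Δ E308Δ/Δ (top 26.4%) and 899 bp in fibroblasts (top 53.4%). The fibroblast peak ranked lower than in any chondrocyte H3K27ac list. Distal peaks numbered 15 in replicate 1, 21 in replicate 2, 20 for H3K4me2, 16 in WT, 14 in E160Δ/Δ E308Δ/Δ and 5 in fibroblasts, with 18 ± 4.24 (SD, n = 2) over the replicates. Intronic regions 145 kb and 57.7 kb from the TSS, chr10:82592180-82594759 and chr10:82504859-82506933, ranked at 22.5% and 24.1% in replicate 1 and at 48.0% and 48.3% in WT, and had no fibroblast peak. In the other direction, 3 fibroblast peaks in Chst11 introns, 98.2, 178 and 192 kb from the TSS, had no partner in replicate 1 or WT.

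Chst3, the chondroitin 6-O-sulfotransferase, was the least marked member. Its promoter (minus strand, mm9 chr10:59644280-59682008) had an H3K4me2 peak of 3068 bp (top 21.3%), an H3K27ac peak of 455 bp in WT (top 57.0%) and one of 323 bp in the deletion list (top 73.1%), and none in either chondrocyte replicate or in fibroblasts. WT and both chondrocyte replicates thus differed at this promoter, although all are chondrocytes. Distal peaks around Chst3 numbered 3 in replicate 1, 1 in replicate 2, 7 for H3K4me2, 3 in WT, 3 in E160Δ/Δ E308Δ/Δ and 1 in fibroblasts. All 3 of replicate 1 lacked a fibroblast peak, and the highest of them, 24.8 kb from the TSS in a UTR exon, ranked at 39.2% there and at 54.8% in WT. Its partner in the deletion list ranked at 91.3%. The fibroblast peak, 42.9 kb upstream, had no partner in replicate 1 or WT.

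Where a member promoter was marked in both cell types, its peaks were mostly wider in chondrocytes. Over the 8 members marked in both, the summed width in replicate 1 over that in fibroblasts had a median of 2.67 (0.448 to 6.60), and 7 lay above the median of 1.16 over 7448 genes. For replicate 2 the median was 1.32 over 7 members, against 0.787 over 7136 genes, with 6 above. Ugdh (0.952), Csgalnact1 (0.971) and Chsy3 (0.623) were narrower in replicate 2 than in fibroblasts. For WT it was 1.52 over 8 members, against 1.15 over 8207 genes, with 6 above. With TSSs at gene ends, Chst11 had the highest ratio in all 3 comparisons, 6.60, 3.30 and 4.02, and Chsy3 the lowest, 0.448, 0.623 and 0.948. With RefSeq starts, Papss2 had the highest ratio in replicate 2, 3.84. Widths depend on depth and on peak calling, and their part in these ratios was not tested.

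Beyond the promoters, the cell types differed in the number of peaks. Around the 10 members lay 72 distal peaks in replicate 1 and 93 in replicate 2, with a mean of 82.5 ± 14.8 (SD, n = 2), and 92 in WT, against 23 in fibroblasts. Per 100 kb of window, these were 3.07, 3.91, 3.92 and 0.981, where the windows of all genes held 0.818, 0.823, 1.28 and 0.544. In the deletion list 62 distal peaks gave 2.64 per 100 kb (0.899 over all genes), and for H3K4me2 116 gave 4.95 (2.36 over all genes). At every member both chondrocyte replicates and WT had at least as many distal peaks as fibroblasts, with Chst3 in replicate 2 at 1 against 1. Of the 92 peaks in WT, 58 lay in introns, as did 49 of 72 in replicate 1 and 15 of 23 in fibroblasts. With peaks under 1 kb apart merged, the 10 members had 62 distal peaks in replicate 1, 56 in replicate 2, 63 in WT and 22 in fibroblasts. The excess over fibroblasts remained, but replicate 2 no longer had more than replicate 1. Counts over all genes were not computed with merged peaks.

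**Figure D2:**
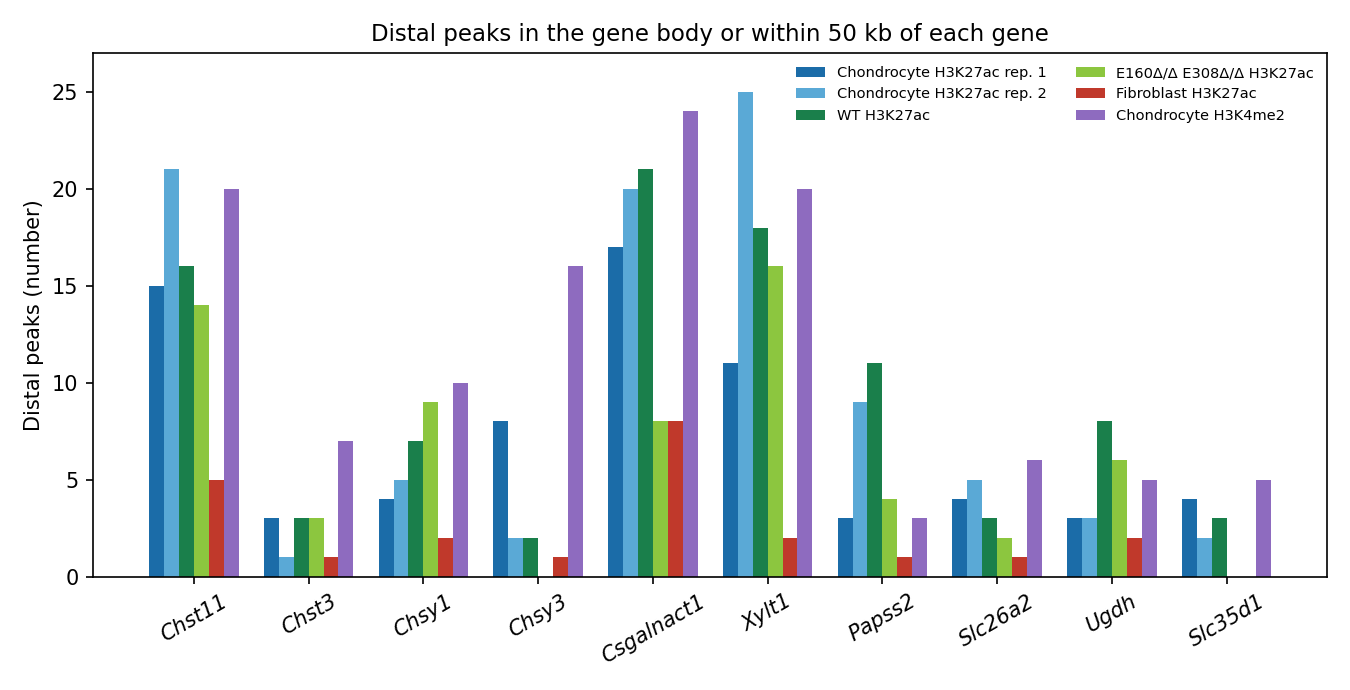
Distal peaks (y axis, number) in the gene body or within 50 kb of each member (x axis) in the 6 lists (colours). Chst11, Csgalnact1 and Xylt1 held most of them, with 15, 17 and 11 in replicate 1 against 5, 8 and 2 in fibroblasts. Counts are not divided by the length of the window.

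With Chst11, Csgalnact1 and Xylt1 left out, the counts were 29 in replicate 1, 27 in replicate 2, 37 in WT and 8 in fibroblasts. The excess over fibroblasts was therefore also present at the other 7 members. Windows of all genes also held fewer distal peaks in fibroblasts, 0.544 per 100 kb against 0.818, 0.823 and 1.28. An excess is thus not particular to the members, and its size over all genes was not computed for this setting. With peaks at any RefSeq start left out as well, the 10 members had 22 distal peaks in fibroblasts against 71 and 88 in the chondrocyte replicates, 61 with the deletion and 90 in WT.

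Peak by peak, 63 of 72 distal replicate 1 peaks (87.5%, exact binomial 95% interval 77.6 to 94.1) had no fibroblast peak over them, against 69.2% around all genes. For WT these were 76 of 92 (82.6%, 73.3 to 89.7) against 74.1%, an interval that includes the value of all genes, and for the deletion list 53 of 62 (85.5%, 74.2 to 93.1) against 66.4%. Intervals cover counting error only and treat peaks as independent, which neighbours in a gene are not. As a yardstick, 30 of 72 replicate 1 peaks (41.7%, 30.2 to 53.9) had no WT peak, although both are chondrocytes, against 35.4% around all genes. Conversely, 14 of 23 fibroblast peaks (60.9%, 38.5 to 80.3) had no replicate 1 peak (54.3% around all genes), and 11 of 23 (47.8%, 26.8 to 69.4) had no WT peak (41.9%). A peak that is missing from a list may lie under the threshold of that list.

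Score was split at the median of each list to see whether weak peaks carried the difference. In the higher-scoring part of replicate 1, 27 of 35 member peaks (77.1%, 59.9 to 89.6) had no fibroblast peak, against 53.1% around all genes, and in the lower-scoring part 36 of 37 (97.3%), against 79.5%. In WT the higher-scoring part gave 21 of 28 (75%, 55.1 to 89.3) against 52.0%, and the lower-scoring part 55 of 64 (85.9%) against 85.5%. Per gene, the share of replicate 1 peaks without a fibroblast peak ran from 2 of 3 at Ugdh to 8 of 8 at Chsy3, with 14 of 15 at Chst11, 10 of 11 at Xylt1 and 14 of 17 at Csgalnact1. The 8 at Chsy3 also had no WT peak, as did 3 of 3 replicate 1 peaks at Papss2 and 3 of 4 at Slc35d1. At the remaining members the share without a WT peak ran from 0 of 3 at Ugdh to 6 of 15 at Chst11.

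**Figure D3:**
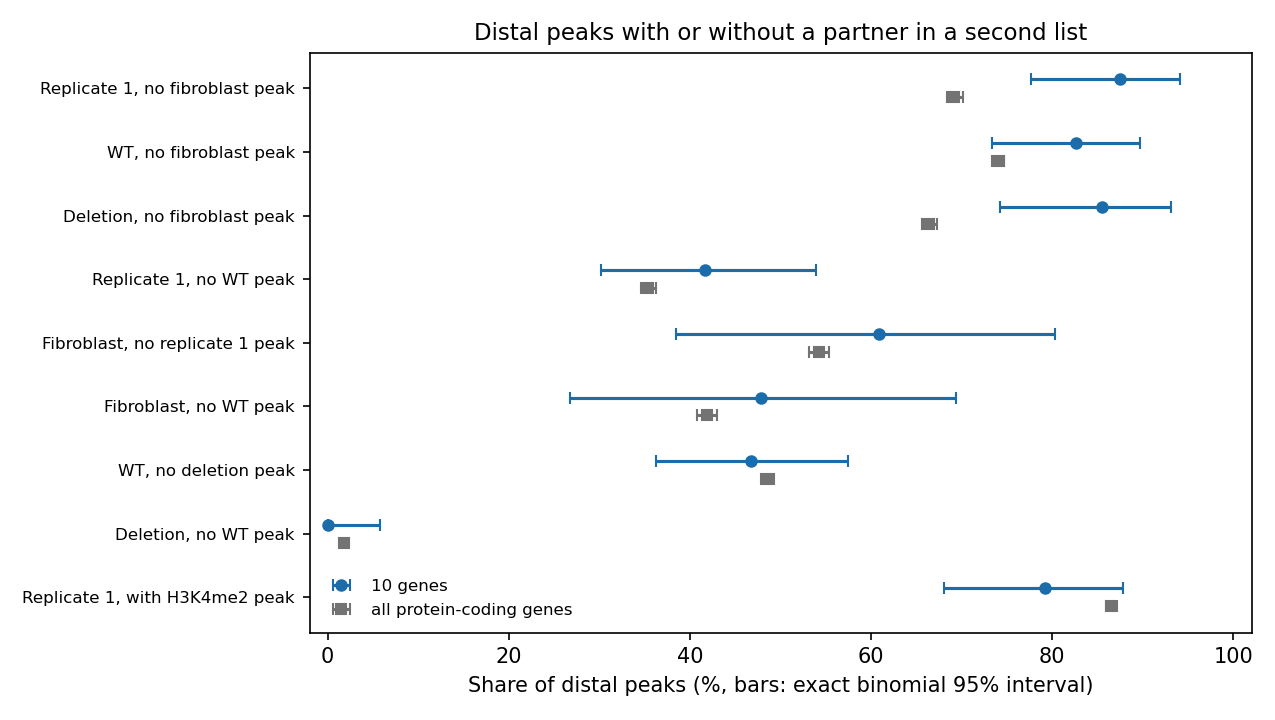
Share of distal peaks (x axis, percent) without, or for the last line with, an overlapping peak in a second list, for the 10 genes (circles) and all protein-coding genes (squares), with exact binomial 95% intervals as bars. The replicate 1 peaks of the members lay at 87.5% without a fibroblast peak against 69.2% for all genes, while WT peaks without a deletion peak lay at 46.7% against 48.5%.

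Since replicate 2 is on another build, its distal peaks were compared by distance from the TSS with a tolerance of 2 kb. Of its 93 peaks, 74 (79.6%, 69.9 to 87.2) had a replicate 1 peak at that distance and 77 (82.8%, 73.6 to 89.8) a WT peak, against 23 (24.7%, 16.4 to 34.8) with a fibroblast peak. At Papss2 this was 1 of 9 for replicate 1 and 7 of 9 for WT. Over all pairs of a gene and a replicate 2 peak, the shares were 79.5%, 89.2% and 54.5%, so that the members lay close to all genes for replicate 1 and below them for WT and fibroblasts. The longer lists offer more chances of a match, so these shares are a description.

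H3K4me2 lay over 57 of 72 distal replicate 1 peaks (79.2%, 68.0 to 87.8), where all genes had 86.5%. This share was 47.2% when peaks had to cover 50% of each other, then above the 42.4% of all genes, and 19.4% with lists of equal number (44.3% around all genes). At promoters, Chst3 had H3K4me2 without H3K27ac in either replicate, and Ugdh had H3K27ac in both replicates without H3K4me2.

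Sequence is shown for the Xylt1 region 105 kb from the TSS, the highest-ranking distal peak of replicate 1 without a fibroblast peak, and for comparison the Chsy1 region 69.8 kb from the TSS, also without a fibroblast peak, which ranked at 33.7% in WT and 41.6% in the deletion list. Each is 300 bases around the WT summit (mm9, plus strand), at chr7:124630296-124630595 and chr7:73323685-73323984. Capitals mark ACAAT on either strand, a core sequence that SOX proteins can bind, which occurs 3 times at Xylt1 and 0 times at Chsy1. The same letters occurred in 31 of 92 member WT windows (33.7%, 24.2 to 44.3) and in 32.1% of all distal WT windows. The AP-1 motif TGANTCA was in 8.70% of member windows and 9.27% of all, and GGGCGG in 3.26% and 9.71%.
Xylt1, 105 kb: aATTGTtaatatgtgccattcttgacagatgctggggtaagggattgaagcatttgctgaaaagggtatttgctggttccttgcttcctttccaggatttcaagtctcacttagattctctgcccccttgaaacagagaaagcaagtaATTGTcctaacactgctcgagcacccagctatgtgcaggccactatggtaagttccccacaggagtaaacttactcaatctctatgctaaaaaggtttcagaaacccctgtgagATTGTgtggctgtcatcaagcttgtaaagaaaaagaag
Chsy1, 69.8 kb: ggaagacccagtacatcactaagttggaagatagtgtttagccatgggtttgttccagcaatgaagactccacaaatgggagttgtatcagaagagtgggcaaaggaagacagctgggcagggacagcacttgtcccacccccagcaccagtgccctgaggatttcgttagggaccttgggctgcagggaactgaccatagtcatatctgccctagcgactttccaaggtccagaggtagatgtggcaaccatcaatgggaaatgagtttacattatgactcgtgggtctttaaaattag

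The comparison of WT with E160Δ/Δ E308Δ/Δ addressed whether marks at these genes, all on other chromosomes than Sox9, differed when both Sox9 enhancers were absent. No member promoter marked in WT was unmarked in the deletion list, although the second WT promoter peak at Slc26a2 (top 68.6%) had no deletion peak. The fold enrichment of the promoter peak over local background was lower in the deletion list at all 9 members marked at the gene end, with 18.5 in WT against 11.5 at Chst11, 37.7 against 21.0 at Ugdh and 13.6 against 6.94 at Slc26a2. The ratio had a median of 0.661 (0.511 to 0.778), with 2 of 9 above the median of 0.692 over 8523 genes, so that the members lay close to all genes. Of these 9, Slc26a2 had the lowest ratio, 0.511, and Chst3 the highest, 0.778, while Papss2 at its upstream start had 15.5 in WT against 13.5, a ratio of 0.866. In summed width the ratio was 0.787 over the members and 0.799 over all genes.

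Of 92 distal WT peaks around the members, 43 (46.7%, 36.3 to 57.4) had no deletion peak, and this was 48.5% around all genes. In the other direction it was 0 of 62 deletion peaks, which allows a share of up to 5.78%, against 1.77% around all genes. The deletion list thus held only regions that WT also held around the members, at an overlap of 1 bp. When peaks had to cover 50% of each other these shares were 71.7% and 61.3%, both above those of all genes (66.5% and 49.7%), and with lists of equal number the first was 17.5% (28.8% around all genes). Each list has 1 library and the deletion list has fewer peaks genome-wide, and the part of depth in these counts was not tested.

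The WT peaks without a deletion peak were low in rank. In the higher-scoring part of the WT list it was 0 of 28, which allows up to 12.3%, against 3.13% around all genes, and in the lower-scoring part 43 of 64 (67.2%, 54.3 to 78.4) against 72.1%. Those 43 ranked between 56.0% and 100% (median 88.9%, median width 290 bp), and the 49 with a deletion peak between 5.82% and 83.3% (median 48.3%, 817 bp). By gene, Csgalnact1 had 15 of 21 without a deletion peak, Papss2 8 of 11, Xylt1 7 of 18, Chst11 4 of 16, Ugdh 3 of 8, Chsy3 2 of 2, Slc35d1 2 of 3, Chsy1 1 of 7, Slc26a2 1 of 3 and Chst3 0 of 3. The highest-ranking of them, at 56.0%, was a peak of 447 bp 404 kb from the Csgalnact1 TSS in Sh2d4a.

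**Figure D4:**
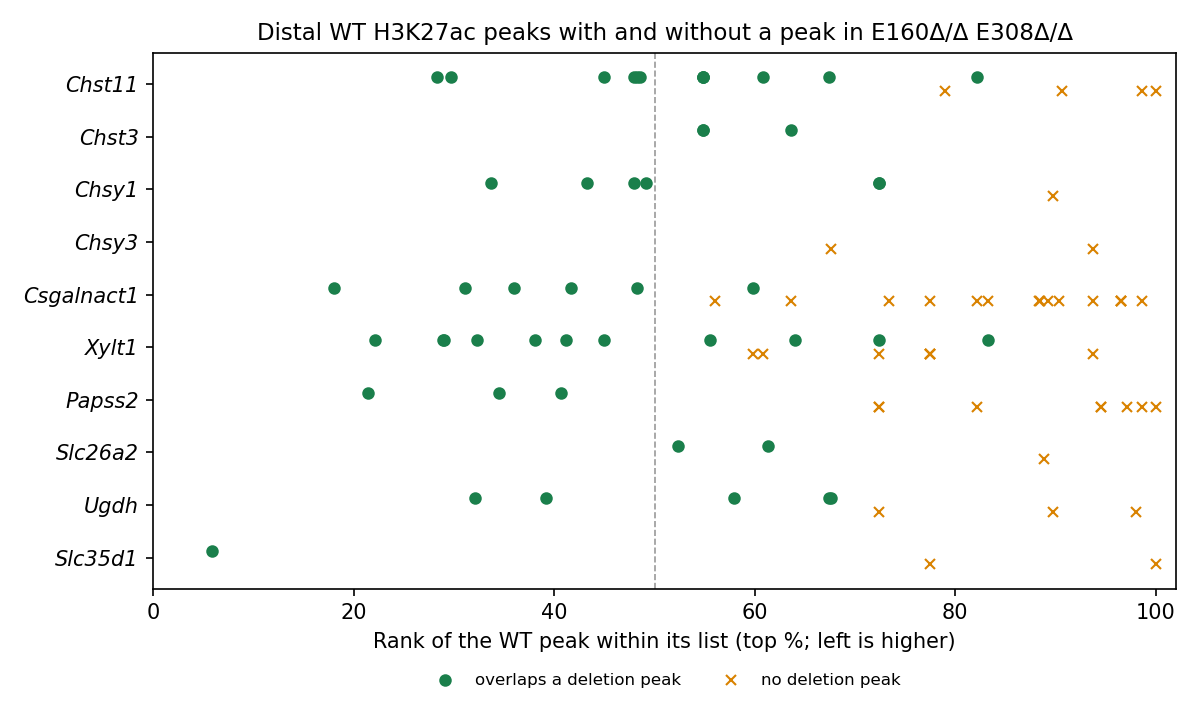
Rank of each distal WT peak of the 10 genes within the WT list (x axis, top percent, lower is higher; dashed line, the median of the list), split by whether a deletion peak overlaps it (circles) or not (crosses). All 43 crosses lie between 56.0% and 100%, and all 28 peaks above the median are circles.

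Other genes of glycosaminoglycan synthesis, heparan sulfate genes among them, were also mostly marked at the promoter. Of 33 such genes, 25 were marked in replicate 1, 26 in replicate 2, 29 for H3K4me2, 28 in E160Δ/Δ E308Δ/Δ, 29 in WT and 28 in fibroblasts. The 5 linkage genes were marked at 4, 4, 5, 5, 5 and 5 in that order, the 3 further chain genes at 3 throughout, and the 8 further sulfation and epimerisation genes at 5, 4, 7, 6, 7 and 6. The 8 further genes of precursor supply were marked at 7 in every list, and the 9 genes of the heparan sulfate branch at 6, 8, 7, 7, 7 and 7. None was marked in both chondrocyte replicates and unmarked in fibroblasts. Of all promoters marked in replicate 1, 6.95% were unmarked in fibroblasts, and of those marked in replicate 2, 8.41%. Chst15, which sulfates chondroitin already sulfated at position 4, was the only one of the 33 marked in fibroblasts (top 76.2%) and in neither replicate. WT (top 36.4%) and the deletion list (top 38.8%) marked it. Of all promoters marked in fibroblasts, 13.4% were unmarked in replicate 1.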

How the data were processed

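ChIP-Seq peak lists of 6 libraries were used as the authors deposited them, and the input library of the same series was not analysed here. According to the study's methods and the submitters' processing notes, reads were cleaned with fastp and mapped to mm9 with Bowtie2 (2.4.4), and peaks were called per library with MACS2 (2.2.4) against input. Chondrocyte H3K27ac replicate 1, H3K4me2 and the fibroblast list hold a deposited score from 50.0 upward in an older MACS format. Replicate 2, WT and the deletion list hold the deposited score, fold enrichment at the summit and its −log10 q and −log10 p, with a lowest −log10 q of 1.33, 2.05 and 2.01. Scores were used only to rank peaks within a list. No read numbers are given, so depth is unknown.

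Replicate 2 was found on GRCm38 by promoter overlap, although the notes name mm9. It was compared by gene or distance, and no coordinate was converted. Genes were taken from GENCODE vM1 (mm9, 22350 protein-coding) and RefSeq (GRCm38), of which 18089 matched by symbol. RefSeq starts were placed on mm9 by a single exact sequence match (17559 of 17727 entries, 99.1%). Promoters with any peak base within 1 kb either side of a start were called marked. Distal peaks lay in the gene body or within 50 kb and over 1 kb from the 5′ end of every protein-coding gene used for that build (GENCODE on mm9, the matched genes on GRCm38). An overlap of 1 bp counted as shared. Peaks annotated as UTR exon, intron or intergenic follow GENCODE vM1. No test was run between groups of 1 or 2 libraries. Shares have exact binomial (Clopper-Pearson) 95% intervals for counting error only.

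Named regions were, per member, up to 2 distal replicate 1 peaks of highest score with WT and H3K4me2 peaks and no fibroblast peak, and the highest-scoring WT peak without a deletion peak. The overlap script was tested on simulated data and gave the same counts as bedtools (2.31.1) on the real lists. Scripts ran in Python (3.11.15) with scipy (1.17.1), pandas (2.3.3), matplotlib (3.10.9) and numpy (2.4.6). Members and gene lists were chosen with earlier results of these data known. The use of RefSeq starts, the count without Chst11, Csgalnact1 and Xylt1 and the list of fibroblast peaks without partners were added after the data were seen.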

Additional observations from a re-analysis of the deposited data

How the results depend on the processing

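Over 20 results, 130 alternatives were computed, of which 103 left the value within 1.5 times of the count or within the interval of the share, and 27 did not. Promoter counts held in 35 of 37, the exceptions being 4 members marked for H3K4me2 with the higher-scoring 50% of peaks and 4 with lists of equal number. With the higher-scoring 50% of peaks, distal counts were 35 in replicate 1, 3 in fibroblasts, 27 in replicate 2, 14 in the deletion list, 28 in WT and 30 for H3K4me2. With peaks under 1 kb apart merged, replicate 1 had 62, replicate 2 56, WT 63, the deletion list 37, fibroblasts 22 and H3K4me2 109. Without Chst11, Csgalnact1 and Xylt1, an alternative added after the data were seen, the counts were 29, 27, 52 (H3K4me2), 8, 37 (WT) and 24 (deletion). With a reciprocal overlap of 50%, the share of replicate 1 peaks without a fibroblast peak was 94.4% (83.5% over all genes), of WT peaks without one 94.6% (85.2%), of fibroblast peaks without a replicate 1 peak 87.0% (74.0%), of WT peaks without a deletion peak 71.7% (66.5%), of deletion peaks without a WT peak 61.3% (49.7%) and of replicate 1 peaks with H3K4me2 47.2% (42.4%). With the higher-scoring 50% in both lists, the first was 97.1% (72.0%), fibroblast peaks without a replicate 1 peak were 100% (3 of 3, against 42.8%) and replicate 1 peaks with H3K4me2 45.7% (71.9%). With lists of equal number, WT peaks without a deletion peak were 17.5% (28.8%) and replicate 1 peaks with H3K4me2 19.4% (44.3%). Leaving out replicate 1 or replicate 2 gave 8 and 8 promoters marked in chondrocytes and 93 and 72 distal peaks. The share of WT peaks without a deletion peak thus ran from 17.5% to 71.7% with the definition. No paired analysis was possible because the groups compared have 1 library each or share no replicate numbers. Unknown depth, different file formats and cut-offs, and a single library per group limit every comparison, and a peak absent from a list is not evidence of an unmarked region.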
